A study of Rattus norvegicus with 9 samples.

Results

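Toll-like receptor signalling to NF-kB was described in rat brain tissue through 6 genes, chosen by their Ensembl identifiers out of 32623 genes in the count table. They are the receptor genes Tlr2 (ENSRNOG00000009822) and Tlr4 (ENSRNOG00000010522), the coreceptor gene Cd14 (ENSRNOG00000017819), the adaptor gene Myd88 (ENSRNOG00000013634), the transcription factor gene Nfkb1 (ENSRNOG00000023258) and the inhibitor gene Nfkbia (ENSRNOG00000007390). The rule used these names and no measured value, but earlier results of these data were known when it was set. The pairing of name and identifier came with the choice and could not be checked against the reference table used here. All 6 were abundant enough to be tested, among 15402 tested genes.

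RNA sequencing was done on brain tissue of rats from 3 groups with 3 libraries each. The titles and treatment labels name the injected agent as Nano-patrol+NIR, rt-PA or saline. All groups underwent a modelling step, were injected 4.5 h after it, and gave tissue 3 days later. rt-PA is recombinant tissue plasminogen activator, an enzyme that dissolves clots, and Nano-patrol+NIR is, by the series title, a thrombolysis approach aimed at less haemorrhage. The count columns of the rt-PA libraries say uk, a difference that was not resolved. The labels used here give no strain, age, brain region or form of the model. No animals spared the modelling step were analysed, and nothing says that the libraries of a group came from separate animals. If they did not, p-values measure technical spread only.

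Toll-like receptors recognise microbial products and molecules released by damaged cells. CD14 hands lipopolysaccharide and other ligands to TLR4 and TLR2, MyD88 passes the signal from the receptors to kinases, and these free NF-kB from its inhibitor IkB-alpha, the product of Nfkbia. Nfkbia is itself a textbook NF-kB target, so that its transcript rises with NF-kB activity and its protein limits that activity. In brain the pathway is known mainly from microglia, infiltrating monocytes and neutrophils, astrocytes and endothelium, and it is studied after ischaemia and bleeding.

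The 250 bases upstream of the RefSeq gene starts are shown for 3 of the genes because NF-kB acts through such regions. Whether NF-kB set the levels measured here was not tested. All 6 genes had an upstream window in the RefSeq table, matched by symbol. The NF-kB consensus site was searched on both strands as GGGRNNYYCC, where R is A or G, Y is C or T and N is any base. It was found upstream of Tlr2 and Nfkbia, and in 6.33% of all 33469 RefSeq windows of that length. Capitals mark the matches, and the sequences read 5′ to 3′ along the gene, from the minus strand of RefSeq build GRCr8, with Tlr2 at chr2:171504558-171504807, Nfkbia at chr6:78597073-78597322 and Cd14, which had the largest differences, at chr18:28611159-28611408.
Tlr2: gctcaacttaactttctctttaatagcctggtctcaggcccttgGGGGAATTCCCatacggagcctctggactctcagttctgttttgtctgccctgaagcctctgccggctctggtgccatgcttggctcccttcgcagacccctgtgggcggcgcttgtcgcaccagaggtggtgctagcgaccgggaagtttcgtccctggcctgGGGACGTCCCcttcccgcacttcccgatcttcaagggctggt
Nfkbia: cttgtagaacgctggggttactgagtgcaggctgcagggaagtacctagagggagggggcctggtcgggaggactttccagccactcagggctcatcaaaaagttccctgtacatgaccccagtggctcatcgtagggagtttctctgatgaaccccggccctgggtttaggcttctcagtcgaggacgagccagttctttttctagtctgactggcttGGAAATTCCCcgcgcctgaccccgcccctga
Cd14: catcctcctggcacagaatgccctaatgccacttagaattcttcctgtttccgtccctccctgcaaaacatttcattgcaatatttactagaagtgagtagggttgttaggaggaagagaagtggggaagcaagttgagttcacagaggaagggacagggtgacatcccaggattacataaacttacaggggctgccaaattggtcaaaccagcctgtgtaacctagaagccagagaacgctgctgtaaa
In Tlr2 overlapping matches ran from base 206 to base 196 before the start and a palindromic match from base 42 to base 33. In Nfkbia a match on the opposite strand ran from base 31 to base 22. The windows of Tlr4, Cd14, Myd88 and Nfkb1 held 0 matches, which says only that these letters are not in this window. A match is a description of sequence, not a binding site measured here.

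Library totals ran from 13059048 to 14992109 counts. In each group 1 library stood apart from the other 2 across all tested genes. Nano-patrol+NIR 3 correlated with its group at r = 0.94 and 0.944 (the other pair at 0.985), rt-PA 3 at 0.913 and 0.896 (the other pair at 0.984), and saline 1 at 0.926 and 0.931 (the other pair at 0.99), over log2 counts across genes, which are not independent replicates. The marker lists for microglia, neutrophils, endothelium and other cell types could not be paired with identifiers, so the labelled tissue and its cell makeup were not checked. In such bulk tissue, fewer cells of a type and less RNA per cell cannot be told apart.

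The receptor genes were scarce and differed in pattern. Levels are CPM, counts scaled to a common library size with TMM, and are comparable between libraries for 1 gene, not between genes of different length. Tlr2, which binds lipoproteins and several host ligands, had 1.94, 2.65 and 2.71 CPM in Nano-patrol+NIR libraries 1 to 3, and 5.4, 4.94 and 2.22 CPM in rt-PA libraries 1 to 3. In saline libraries 1 to 3 it had 2.44, 3 and 1.7 CPM. Only rt-PA 1 and rt-PA 2 lay above every other library, while rt-PA 3 lay within the range of the saline libraries. The group means were 2.43 ± 0.43 CPM after Nano-patrol+NIR, 4.19 ± 1.72 after rt-PA and 2.38 ± 0.651 after saline (SD, n = 3 each).

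Tlr4, the lipopolysaccharide receptor, had its highest values in other libraries and was near the limit of what could be counted. It had 7, 6 and 27 counts in Nano-patrol+NIR libraries 1 to 3 (0.522, 0.454 and 1.88 CPM) and 11, 10 and 15 counts in the rt-PA libraries (0.848, 0.761 and 1.04 CPM). The saline libraries held 43, 11 and 27 counts (2.91, 0.846 and 1.92 CPM). The highest values came from saline 1, saline 3 and Nano-patrol+NIR 3, and the ranges of all 3 groups overlapped. The means were 0.951 ± 0.803 CPM after Nano-patrol+NIR, 0.884 ± 0.144 after rt-PA and 1.89 ± 1.03 after saline (SD, n = 3 each). The number of Tlr2 counts per Tlr4 count was 3.71, 5.83 and 1.44 in the Nano-patrol+NIR libraries, 6.36, 6.5 and 2.13 in the rt-PA libraries, and 0.837, 3.55 and 0.889 in the saline libraries. The ranges of all 3 groups overlapped in this ratio.

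Cd14 showed the widest range of the 6 genes. It encodes the surface protein that delivers ligands to the receptors, and it is abundant on monocytes and reactive microglia. It had 1.19, 1.21 and 3.2 CPM in Nano-patrol+NIR libraries 1 to 3, 35.5, 37.8 and 4.52 CPM in rt-PA libraries 1 to 3, and 2.1, 1.69 and 0.781 CPM in saline libraries 1 to 3. The counts behind these were 16, 16 and 46 after Nano-patrol+NIR, 461, 497 and 65 after rt-PA, and 31, 22 and 11 after saline. All 3 rt-PA libraries lay above the other 6, but rt-PA 3 only narrowly, at 8.37-fold less than rt-PA 2. The share of tested genes with such a split was not counted. The means were 1.87 ± 1.15 CPM after Nano-patrol+NIR, 26 ± 18.6 after rt-PA and 1.52 ± 0.676 after saline (SD, n = 3 each).

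Myd88, the adaptor shared by most Toll-like receptors and the interleukin-1 receptor, followed Cd14 at a smaller scale. It had 6.19, 6.82 and 8.69 CPM in Nano-patrol+NIR libraries 1 to 3, 22.1, 23.5 and 10.2 CPM in rt-PA libraries 1 to 3, and 8.81, 7.31 and 7.38 CPM in saline libraries 1 to 3. Again every rt-PA library exceeded the other 6, a split not counted over all tested genes, with rt-PA 3 closest to them. The means were 7.23 ± 1.3 CPM after Nano-patrol+NIR, 18.6 ± 7.29 after rt-PA and 7.83 ± 0.847 after saline (SD, n = 3 each).

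The transcription factor and inhibitor genes were better counted, with at least 378 counts in every library. Nfkb1, which encodes p105 and its product p50, had 33.6, 30.2 and 45 CPM in Nano-patrol+NIR libraries 1 to 3, and 51.3, 48.8 and 40.7 CPM in rt-PA libraries 1 to 3. In saline libraries 1 to 3 it had 29.4, 29.1 and 30.5 CPM, the tightest group of any gene here. The rt-PA libraries lay above all saline libraries, and the Nano-patrol+NIR libraries spanned the space between, overlapping with both. The means were 36.3 ± 7.77 CPM after Nano-patrol+NIR, 46.9 ± 5.54 after rt-PA and 29.6 ± 0.713 after saline (SD, n = 3 each).

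Nfkbia encodes IkB-alpha, which holds NF-kB in the cytoplasm. It had 54.6, 39 and 55.3 CPM in Nano-patrol+NIR libraries 1 to 3, 61.5, 72.4 and 44.6 CPM in rt-PA libraries 1 to 3, and 25.6, 29.4 and 30.7 CPM in saline libraries 1 to 3. Every treated library lay above every saline library, and the treated groups overlapped with each other. How many tested genes were split in this way was not counted. The means were 49.6 ± 9.21 CPM after Nano-patrol+NIR, 59.5 ± 14 after rt-PA and 28.6 ± 2.62 after saline (SD, n = 3 each). Nfkbia counts per Nfkb1 count, a ratio within a library that no scaling changes, were 1.62, 1.29 and 1.23 in the Nano-patrol+NIR libraries, 1.2, 1.49 and 1.1 in the rt-PA libraries, and 0.871, 1.01 and 1.01 in the saline libraries. Here too each treated library lay above each saline library. This ratio and that of the receptors were chosen after the values were seen and were not tested.

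**Figure D1:**
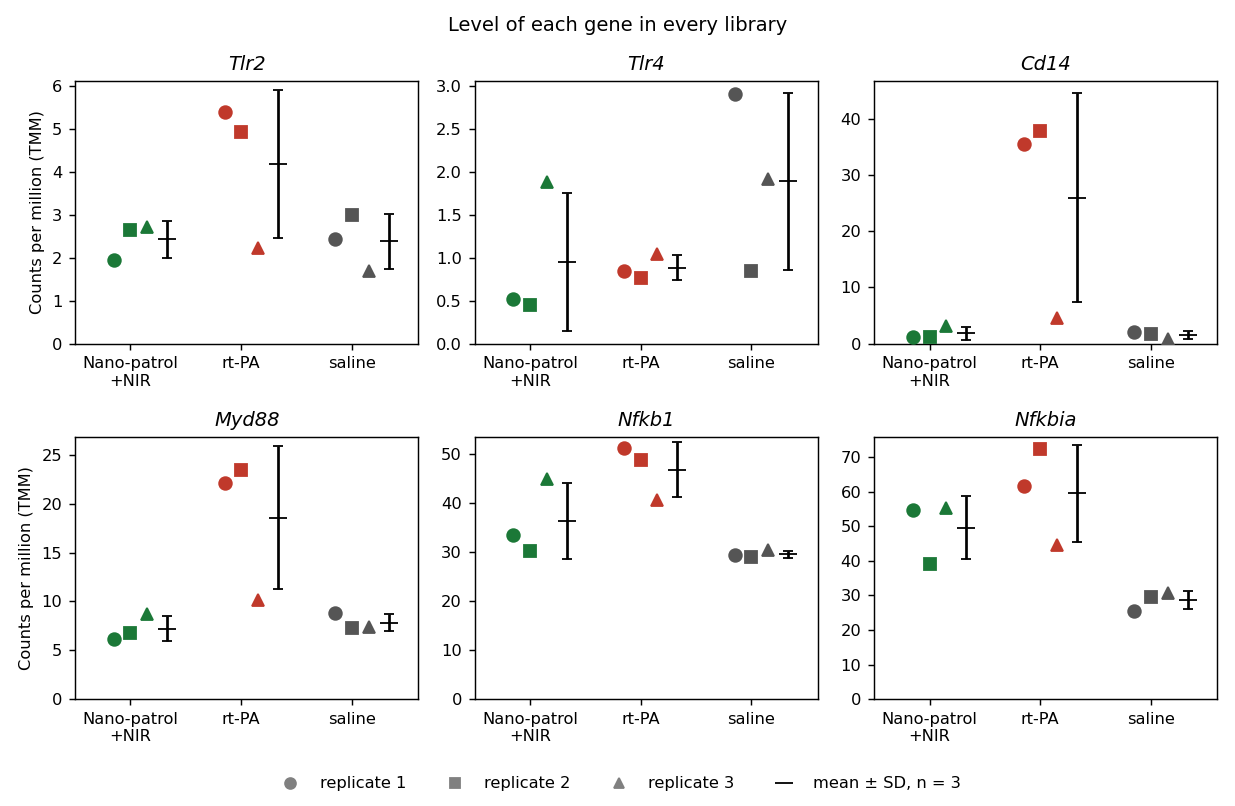
Level of each gene in CPM with TMM scaling (vertical axes, each from 0) in the 3 libraries of the Nano-patrol+NIR, rt-PA and saline groups, with marker shapes for replicate numbers and the mean ± SD (n = 3) beside them. Cd14 and Myd88 are high in rt-PA 1 and rt-PA 2 and closer to the other groups in rt-PA 3, and Nfkbia is higher in each treated library than in any saline library.

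The comparison of rt-PA with saline set the libraries labelled rt-PA against those labelled saline, both from rats that had undergone a modelling step. Cd14, Nfkbia, Myd88 and Nfkb1 were higher in all rt-PA libraries than in all saline libraries, Tlr2 was higher on average with overlapping libraries, and Tlr4 was lower on average with overlapping libraries. None of the 6 genes passed an edgeR adjusted p under 0.05 over all tested genes, a count of 0, where 0.00649% of tested genes did. Cd14 had a log2 fold change of 4.08 (SE 0.83, edgeR adjusted p = 0.0862), a 16.9-fold difference and larger in size than that of 99.6% of tested genes. Nfkbia differed by 1.06 (SE 0.22, edgeR adjusted p = 0.0871), Myd88 by 1.24 (SE 0.32, edgeR adjusted p = 0.126) and Nfkb1 by 0.66 (SE 0.18, edgeR adjusted p = 0.136), all as log2 fold changes. These 4 had an unadjusted p under 0.05 with edgeR and were higher, as were 9.05% of tested genes. The 4 were also the genes whose groups did not overlap upward, as for 9.18% of tested genes. Tlr2 had a log2 fold change of 0.81 with a 95% interval from -0.09 to 1.72 (edgeR adjusted p = 0.337), and Tlr4 one of -1.09 with an interval from -2.55 to 0.36 (edgeR adjusted p = 0.422). The median log2 fold change was 0.94 over the 6 genes and -0.01 over all tested genes.

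The calls in this comparison turned on 1 library and on the tool. When rt-PA 3 was left out, edgeR called 4 of the 6 genes higher, and 8.33% of tested genes. This library is singled out because it stood apart, so the p-values of that fit are too small. In that fit Cd14 had a log2 fold change of 4.6 (edgeR adjusted p = 0.00256), Myd88 1.56 (0.00469), Nfkbia 1.26 (0.0065) and Nfkb1 0.78 (0.0346), while Tlr2 at 1.14 missed the threshold with an adjusted p of 0.0539. DESeq2 with all 9 libraries called the same 4 genes, Cd14 (adjusted p = 7.67e-06), Nfkbia (0.00114), Myd88 (0.0104) and Nfkb1 (0.0229), where it called 4.42% of tested genes higher. limma-voom called 0 of the 6, with 4 at an unadjusted p under 0.05, as were 15.5% of tested genes in either direction. Why rt-PA 3 differed from the other rt-PA libraries was not tested.

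**Figure D2:**
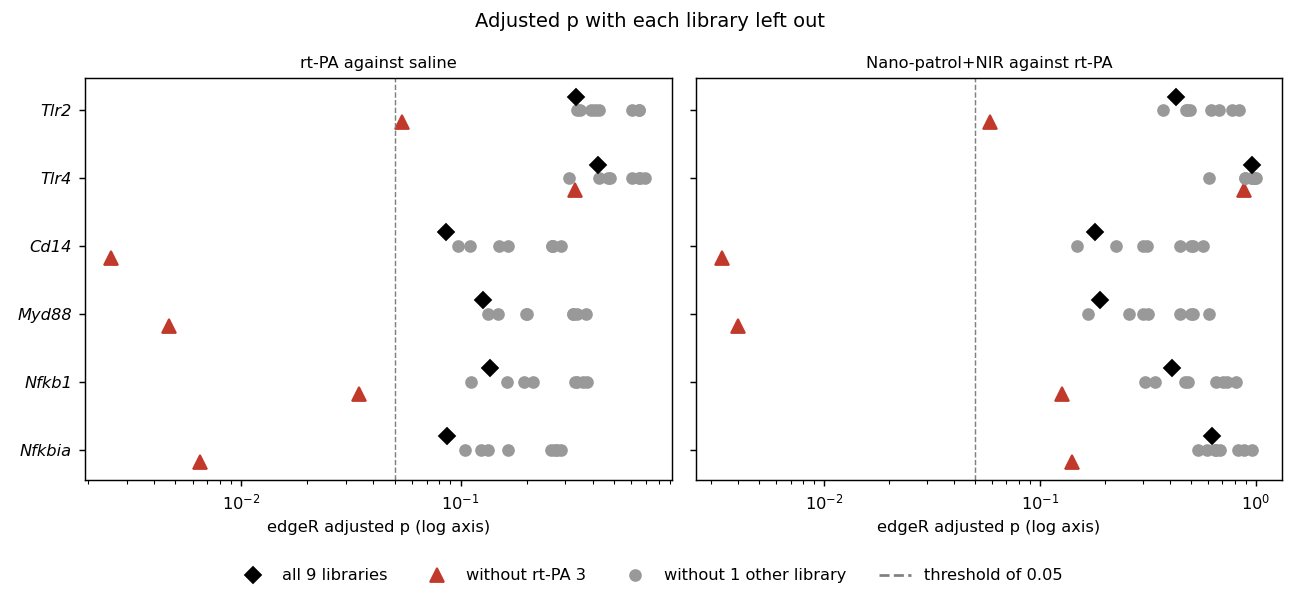
edgeR adjusted p of each gene (log axis) with all 9 libraries, without rt-PA 3 and without each other library, for rt-PA against saline and for Nano-patrol+NIR against rt-PA, with the threshold of 0.05 dashed. For rt-PA against saline, leaving out rt-PA 3 brings 4 genes under the threshold, and leaving out any other library brings 0 of the 6 genes under it.

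Nano-patrol+NIR, taken as a whole, was compared with saline. Among the 6 genes Nfkbia was the one higher in all 3 Nano-patrol+NIR libraries than in any saline library, by a log2 fold change of 0.8 (SE 0.22, 95% interval 0.3 to 1.29), or 1.74-fold. Its edgeR adjusted p of 0.577 missed the threshold, as did those of the other 5 genes, so that 0 of 6 were called, where 0.00649% of tested genes were. The count at an unadjusted p under 0.05 with edgeR was 1 of 6 and upward, against 3.44% of tested genes, and 1 of 6 did not overlap upward, against 7.62%. DESeq2 and limma-voom called 0 of the 6 as well, where DESeq2 called 0.867% of tested genes. Each held 1 of the 6 at an unadjusted p under 0.05. In either direction, 6.82% of tested genes did so with DESeq2 and 5.08% with limma-voom. Myd88 had a log2 fold change of -0.12 (95% interval -0.84 to 0.61), Tlr2 of 0.03 (-0.88 to 0.94), Cd14 of 0.3 (-1.51 to 2.1), Nfkb1 of 0.29 (-0.12 to 0.7) and Tlr4 of -0.98 (-2.43 to 0.46). The intervals of Cd14 and Tlr4 still allow several-fold differences in 1 direction or both. Tlr4 was at -1.94 without Nano-patrol+NIR 3 and at -0.51 without saline 1. The signs of the smallest differences were not stable, with Cd14 at -0.34 without Nano-patrol+NIR 3 and -0.03 without saline 3, and Tlr2 at -0.17 without saline 3, -0.05 and -0.03 when replicate 3 or replicate 2 of Nano-patrol+NIR was dropped. The median log2 fold change was 0.16 over the 6 genes and -0.01 over all tested genes.

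The direct comparison of Nano-patrol+NIR with rt-PA set both thrombolysis treatments against each other. Cd14 was 0.0726 times its rt-PA level after Nano-patrol+NIR and Myd88 0.39 times, and for both genes the highest Nano-patrol+NIR library was under the lowest rt-PA library. Their log2 fold changes were -3.78 (SE 0.81, edgeR adjusted p = 0.18) and -1.36 (SE 0.32, edgeR adjusted p = 0.189), so that neither passed the threshold. edgeR called 0 of the 6 genes, where it called 0% of tested genes. At an unadjusted p under 0.05 it held 2 of 6, both lower, against 7.86% of tested genes, and for 2 of 6 the groups did not overlap downward, against 8.54%. Nfkbia had a log2 fold change of -0.26 (95% interval -0.75 to 0.23), Nfkb1 of -0.37 (-0.78 to 0.04), Tlr2 of -0.78 (-1.68 to 0.12) and Tlr4 of 0.11 (-1.37 to 1.6), which was -0.87 without Nano-patrol+NIR 3. The median log2 fold change was -0.57 over the 6 genes and 0.02 over all tested genes.

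Here as well the calls turned on rt-PA 3 and on the tool. When it was left out, edgeR called Cd14 (log2 fold change -4.31, adjusted p = 0.00338) and Myd88 (-1.69, 0.00398) lower after Nano-patrol+NIR, 2 of 6 genes, where it called 8.07% of tested genes lower. As before, the p-values of a fit without the library that stood apart are too small. DESeq2 with all libraries called the same genes, Cd14 at an adjusted p of 8.99e-05 and Myd88 at 0.00714, where it called 2.83% of tested genes lower. limma-voom called 0 of the 6, with 2 at an unadjusted p under 0.05, as were 12.3% of tested genes in either direction. Without Nano-patrol+NIR 3 the log2 fold change of Cd14 was -4.46 (edgeR adjusted p = 0.224). The comparisons share libraries, the rt-PA ones here and with saline, so a value in rt-PA enters both with opposite sign and the results are not independent of each other.

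**Figure D3:**
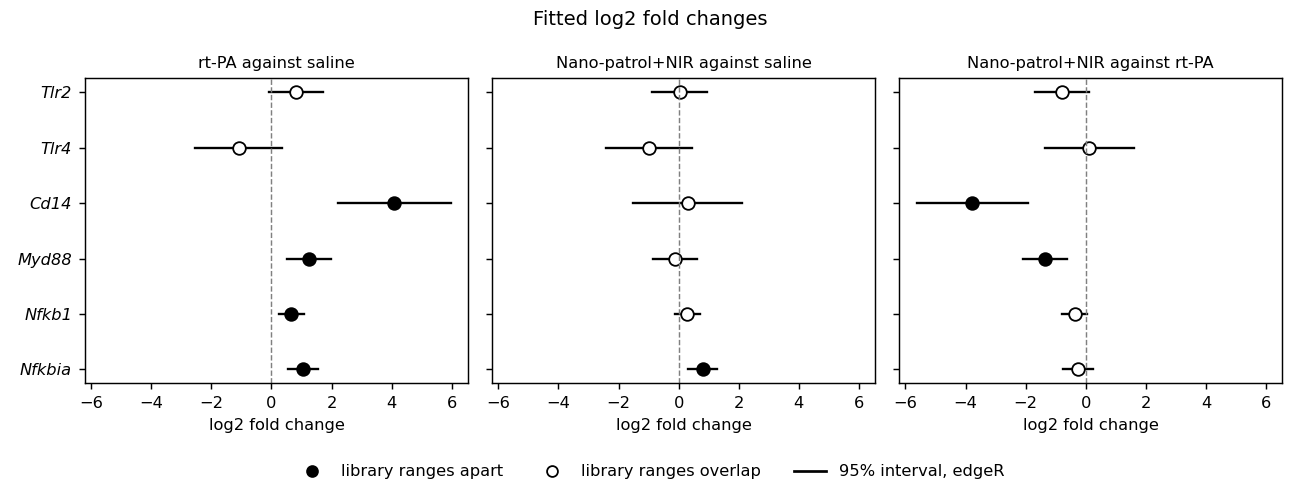
Fitted edgeR log2 fold changes (horizontal axes) of each gene in the 3 comparisons, with 95% intervals, and filled circles where the libraries of the compared groups did not overlap. Cd14 lies at 4.08 for rt-PA against saline and at -3.78 for Nano-patrol+NIR against rt-PA, and Nfkbia is the gene with a filled circle for Nano-patrol+NIR against saline.

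Within each group, the library that stood apart was often its highest or lowest, for the 6 genes and for all tested genes. In the Nano-patrol+NIR group, replicate 3 held the highest level of all 6 genes. It was the highest library of the group for 41.6% of tested genes and the lowest for 42.9%. In the rt-PA group, replicate 3 held the lowest level of 5 of the 6 genes and the highest of Tlr4. It was the lowest for 42.7% of tested genes and the highest for 44%. In the saline group, saline 1, 2 and 3 were highest for 3, 1 and 2 of the genes and lowest for 1, 3 and 2. Over all tested genes saline 1 was highest for 44% and lowest for 44%. Relative to each gene's own mean over the 9 libraries, the 6 genes averaged 1 and 1.02 log2 units above it in rt-PA 1 and rt-PA 2, and 0.03 in rt-PA 3. They averaged -0.55, -0.59 and 0.17 in Nano-patrol+NIR libraries 1 to 3 and -0.14, -0.42 and -0.52 in saline libraries 1 to 3. By this summary rt-PA 3 lay nearer to Nano-patrol+NIR 3 than to the other rt-PA libraries. Over all tested genes, rt-PA 3 correlated at r = 0.94, 0.943 and 0.946 with Nano-patrol+NIR libraries 1 to 3. It correlated at 0.923, 0.927 and 0.928 with saline libraries 1 to 3, and at 0.913 and 0.896 with rt-PA 1 and rt-PA 2. The cause was not tested.

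**Figure D4:**
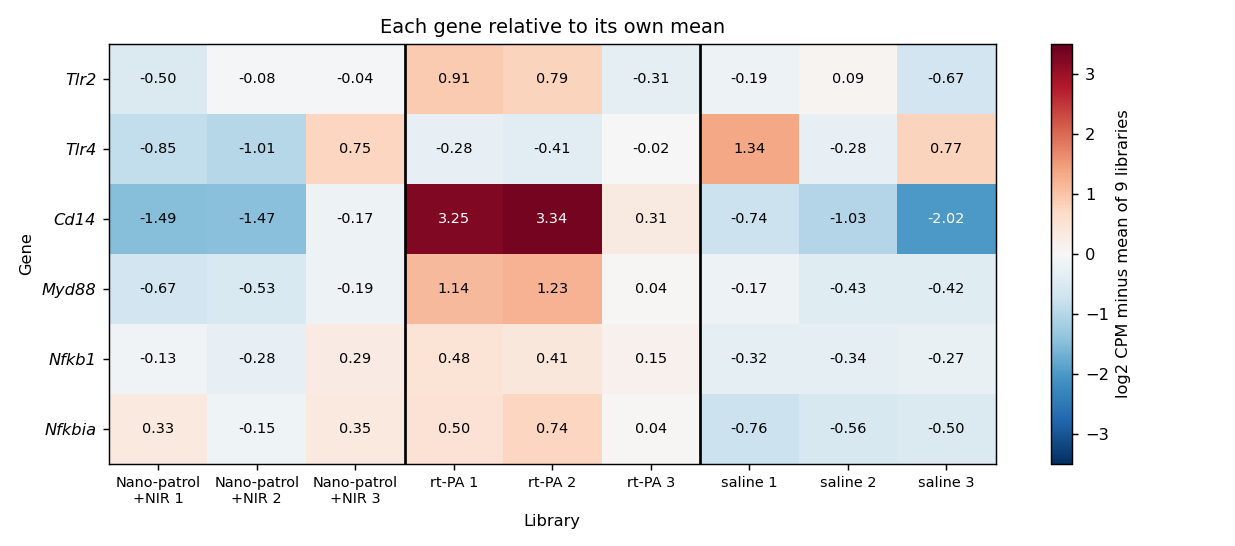
log2 CPM of each gene minus its mean over all 9 libraries (colour and printed number), by library, with lines between groups. Cd14 reaches 3.25 and 3.34 in rt-PA 1 and rt-PA 2 and 0.31 in rt-PA 3, Tlr4 is highest in saline 1 at 1.34, and Nfkbia is below its mean in all saline libraries.

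Distance between genes was measured as the root-mean-square difference between the mean-centred log2 CPM of a pair of genes over the 9 libraries. The values were not scaled, so the distance depends on how much each gene varied as well as on the shape of its pattern. Genes that varied little lie close to each other whatever their shape. Nfkb1 and Nfkbia were the closest pair of the 6 genes by this distance, 0.27 log2 units apart. Nfkb1 ranked 52 of 15401 genes in closeness to Nfkbia and Nfkbia ranked 1107 in closeness to Nfkb1. Tlr2 and Myd88 were 0.33 apart, where Tlr2 ranked 206 in closeness to Myd88 and Myd88 ranked 448 in closeness to Tlr2. Myd88 was the member nearest to Cd14, at 1.24 and rank 269, but Cd14 ranked 13761 of 15401 in closeness to Myd88. Cd14 itself varied over a far wider range than the other genes. Tlr4 was near to none, at least 0.84 from every other member. The genes outside the 6 with the smallest average distance to them were ENSRNOG00000000991 and ENSRNOG00000025318, each at a mean of 0.575, for which the files give no symbol. They lay within 0.37 of Tlr2, Myd88, Nfkb1 and Nfkbia but at 0.91 or more from Tlr4 and 1.4 or more from Cd14. These distances describe the 9 libraries, including those that stood apart, and carry no test.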

How the data were processed

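Per the labels' protocols, Trizol RNA of rat brain was enriched for poly(A) and made into libraries. The submitters' processing notes list StringTie 1.3.1, HISAT2, Bowtie2 2.2.8 and fastp 0.18.0, with no roles. How reads were counted, on which build, annotation and strand setting, is not given in the sources used here. Raw whole-number counts per gene and library were deposited by the authors as 1 table. Sample titles gave the groups. Without a stated strand setting, reads of antisense or overlapping genes cannot be told apart.

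The main tool was edgeR 4.0.16 in R 4.3.3. filterByExpr kept 15402 of 32623 genes, scaling was by TMM, and all 9 libraries entered 1 model with a mean per group (6 residual degrees of freedom) and robust quasi-likelihood F tests. Benjamini-Hochberg adjustment ran over all tested genes, and genes under 0.05 were called. Each standard error is the size of the log2 fold change over the root of F. A prior count of 2 entered log2 CPM. The fit was also run on counts simulated from the means and dispersions it had estimated. Those counts held no library that stood apart, so the run cannot show how the fit deals with such libraries. Other fits used DESeq2 1.42.0, limma-voom (limma 3.58.1), a replicate block, no filter on low counts, unscaled totals, RLE scaling, the 6 compared libraries alone, or fewer libraries. With 3 libraries against 3 an exact permutation test cannot reach 0.05 and none was run.

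The 6 genes, the lists and the alternatives were chosen with earlier results of these data known. All 6 genes are named with their values, and beyond them the genes nearest to them by the root-mean-square distance. Lists of other pathway genes and cell type markers were written as symbols. The reference table holds 0 Ensembl identifiers, so the lists were not tested. Upstream sequences are from RefSeq, build GRCr8.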

Additional observations from a re-analysis of the deposited data

How the results depend on the processing

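Over 17 alternatives, 306 fitted values of the 6 genes were obtained, of which 273 kept direction and side of the threshold, 22 passed it where the fit of all libraries had not, and 11 changed direction. The differences that changed direction were small with all libraries. Against saline, Nano-patrol+NIR had log2 fold changes of 0.03 for Tlr2 and 0.3 for Cd14, and against rt-PA 0.11 for Tlr4. The reversed values were not all small, with Tlr4 reaching -0.87. For Nano-patrol+NIR against saline, Tlr2 ranged from -0.17 to 0.21 with 1 library left out, and was -0.03 when replicate 2 and -0.05 when replicate 3 of Nano-patrol+NIR was dropped. It was -0.02 when the 3 outlying libraries (saline 1, Nano-patrol+NIR 3 and rt-PA 3) were dropped together, and Cd14, at up to 0.62 without saline 1, gave -0.03 without saline 3, -0.34 without Nano-patrol+NIR 3 and -0.02 without those 3 together. For Nano-patrol+NIR against rt-PA, Tlr4, at up to 0.42 without Nano-patrol+NIR 2, gave -0.16 with limma-voom, -0.06 with the replicate block, -0.87 without Nano-patrol+NIR 3 and -0.75 without the 3 libraries. The numbers of the 6 genes called, 0 in each comparison, were 4 for rt-PA against saline and 2 for Nano-patrol+NIR against rt-PA with DESeq2, 0 to 4 and 0 to 2 leaving out 1 library, and 5 in each without the 3 libraries, where 43.8% and 40.5% of tested genes were called. Those libraries were left out because they stood apart, which makes p-values too small. The number of the 6 genes called stayed at 0 in all 17 alternatives for Nano-patrol+NIR against saline. Over the whole table edgeR called 1, 1 and 0 genes for rt-PA against saline, for Nano-patrol+NIR against saline and for Nano-patrol+NIR against rt-PA. DESeq2 called 1062, 132 and 627, limma-voom 0, 0 and 1, with 2384, 782 and 1897 at an unadjusted p under 0.05, and the 6 libraries compared 0, 3 and 0. Leaving out 1 library gave 0 to 2113, 0 to 35 and 0 to 2046, the highest without rt-PA 3, and leaving out the 3 libraries 6710, 501 and 6195. The replicate block called 0, 0 and 0 genes, with 2279 genes at an unadjusted p under 0.05 for rt-PA against saline, and 0 of the 6 genes. Deviations of same-numbered libraries correlated at -0.362 to 0.278, over 0.1 in 5 of 9 pairs. For 2 of 9 libraries the best match had the same number. With 3 libraries per group and 1 outlying library in each, this check cannot decide whether the numbers pair the samples. For all of these, the cause was not tested. Depth limits Tlr4 most, at 6 to 43 counts per library.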
